A study of Mus musculus with 88 samples.

Results

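The 58 genes described here belong to receptors for cytokines, interferons, colony-stimulating factors and ligands of the tumour necrosis factor (TNF) family in RAW 264.7 cells, a mouse macrophage cell line, and 1 of them, Csf1r-ps, is a pseudogene. They were taken from the 10698 genes on the array by a rule on gene symbols, which covers interleukin receptors, Csf receptors, Ifnar, Ifngr and Tnfrsf genes, together with Il6st and Lifr. Each gene's level after treatment was set against that in time-matched cells given medium only. The treatments were 50 nM isoproterenol (ISO, an agonist of beta-adrenergic receptors) with LPS, 10 µM prostaglandin E2 (PGE2, which acts on its own receptors) with LPS, 100 ng/ml lipopolysaccharide (LPS, from the bacterial outer membrane) alone, ISO alone and PGE2 alone, each for 1, 2 or 4 h. For LPS alone the labels add 100 pM lipid binding protein, which they do not name for the combinations. If the labels are complete, an effect of ISO or PGE2 on the LPS response cannot be told apart from one of that protein. Each of the 15 groups had 3 sets, except PGE2 at 1 h with 2, and a set was 1 pair of 2-colour arrays with the dyes exchanged, which gave 44 sets on 88 arrays. No genotype is given for the cells, which are 1 line, and whether the sets came from separate cultures is not stated, so the p-values measure only how far sets differ, and that may be technical. RNA came from whole cultures, so fewer cells with a transcript and less transcript per cell cannot be told apart.

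Cytokine receptors set which signals a macrophage can receive. TNF receptors recruit TRAF adaptors or death-domain proteins, receptors of the interleukin-1 type signal through MyD88 and IRAK kinases, and most other interleukin, interferon and colony-stimulating factor receptors pair a ligand-binding chain with a shared chain that carries JAK kinases and STAT factors. ISO and PGE2 both raise cyclic AMP in macrophages, and the design asks what each does alone and what it does to the response to LPS.

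Unless another quantity is named, a value given for a gene is its log2 ratio, treated over medium. The table as deposited does not state its direction. Read as treated over medium, 18 genes known to be induced by LPS had a median above 0 on 18 of 18 LPS arrays, and that direction is therefore called likely. On each array 10.9 to 45.7% of probes stood at exactly 0, a value of unknown meaning, and every mean that holds such values is drawn toward 0. All 58 receptor genes had at least 1 other value. Of these genes, 31 had a value on all 88 arrays, 15 on 44 to 87 and 12 on fewer than 44. The 2 arrays of a set agreed less without LPS than with it: across genes, r was −0.69 to 0.40 in 17 sets without LPS, 10 of them below 0, and 0.21 to 0.87 in 27 sets with LPS. Ratios hold no levels, so the cell type was checked only by which markers gave values: 11 of 12 listed macrophage markers were on the array, of which Cd68, Adgre1, Csf1r, Fcgr1 and Lgals3 had a value on 88 arrays and Lyz2 on 6. Of 23 measured markers of other cell types, 1 passed the test in LPS alone at 4 h, the endothelial gene Kdr at 2.22, and the other 22 lay between −0.10 and 0.20. Kdr also passed at 4 h with LPS plus ISO, at 2.21, and with LPS plus PGE2, at 2.04, each time with 1 more marker (Cdh5 with ISO, Cd4 with PGE2). At 1 h Cd4 passed in all 3 LPS groups and at 2 h Cd8a passed in LPS alone, while 0 of 23 passed with ISO or PGE2 alone at any time. The part of these markers in the results was not tested.

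A gene was called when the adjusted p of limma, fitted on all 10518 genes with a value, was under 0.05. Of the 58 receptor genes, 34 were called in at least 1 of the 15 groups, where 48.2% of all genes were. A change of at least 2-fold that was also called was seen in 11 of them, against 6.26% of all genes. These 11 were Tnfrsf1b, Tnfrsf12a, Tnfrsf13b, Il13ra1, Il13ra2, Il15ra, Il4ra, Il7r, Il10ra, Il1rap and Csf2rb2. With LPS alone, 30 of the 58 were called at one time or another, where 37.3% of all genes were. ISO alone moved 12, where 4.77% of all genes were called, and PGE2 alone moved 5, where 1.52% were. The 3 called only in a combination, Il1r1, Tnfrsf8 and Tnfrsf11a, changed little, and the plot of called genes shows every mean.

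**Figure D1:**
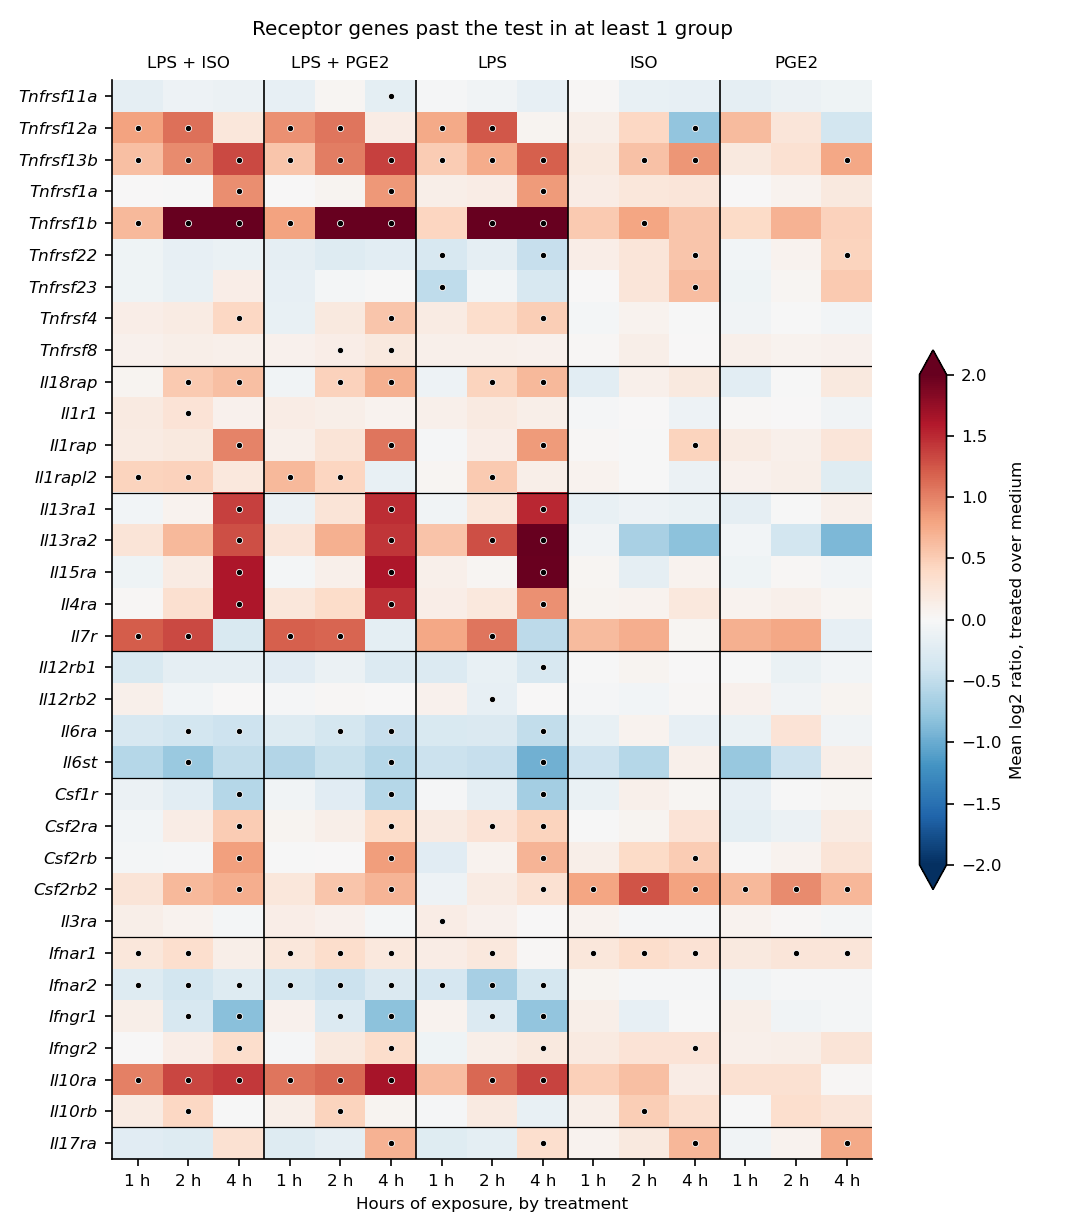
Mean log2 ratio of treated over medium (colour, cut at 2 on either side) for the 34 receptor genes called in at least 1 of 15 groups, one row per gene in family order and one column per treatment and time. Black dots mark an adjusted p under 0.05. Tnfrsf1b is the row of highest values with LPS, and Csf2rb2 is marked in all 6 columns of ISO and PGE2 alone.

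With LPS alone, the number of called receptor genes grew with time, as did the share of all genes called. At 1 h, 3 were higher and 3 lower than in medium, where 4.64% of all genes were called higher and 4.84% lower. At 2 h, 10 were higher and 3 lower, against 8.88% and 7.01% of all genes. At 4 h, 16 were higher and 7 lower, against 14.3% and 16.4% of all genes. The median over the 58 genes was −0.01, 0.04 and 0.04 at 1, 2 and 4 h, close to the median of 0 over all genes at each time. A fit added after the data were seen took the set number within each time as a block. Such a block takes out of the spread what same-numbered sets of different treatments share. With it, 16 receptor genes were called at 1 h and 22 at 2 h of LPS, where 19.7% and 24.8% of all genes were.

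Among the 17 TNF receptor genes, 4 were called higher and 1 lower with LPS at 4 h, against 14.3% and 16.4% of all genes. Tnfrsf1b, which encodes TNFR2, the TNF receptor without a death domain, had the highest ratio of all 58 genes. Its sets gave 0.66, 0.06 and 0.57 at 1 h, 2.37, 1.70 and 2.61 at 2 h, and 3.08, 3.81 and 3.50 at 4 h. The 1 h sets overlapped none of the later ones, and every 4 h set lay above every 2 h set. The mean reached 2.23 ± 0.47 at 2 h and 3.46 ± 0.37 at 4 h (SD, n = 3 each), or 4.68-fold and 11.0-fold, with adjusted p of 1.47e-10 and 4.19e-16 in limma. The 1 h value was not called (adjusted p = 0.172). Tnfrsf1a, which encodes TNFR1, the death-domain receptor for the same ligand, was called only at 4 h, at 0.85 ± 0.33 (SD, n = 3, adjusted p = 1.88e-06), with sets at 0.78, 0.55 and 1.21. Their ligand gene Tnf stood at 3.63, 3.55 and 3.42 at 1, 2 and 4 h, so its ratio was already at that size at the time when neither receptor gene was called.

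Tnfrsf13b encodes TACI, a receptor for the B cell ligands BAFF and APRIL. With LPS it rose at each time, with sets at 0.52, 0.32 and 0.66 at 1 h, 0.82, 0.45 and 0.98 at 2 h, and 1.20, 1.23 and 1.15 at 4 h. The 4 h mean was 1.19 ± 0.04 (SD, n = 3, adjusted p = 1.49e-13). These gene values understate what 1 of its probes read. The probe with values on all 88 arrays averaged 0.94, 1.61 and 2.38 at 1, 2 and 4 h of LPS, while the other had values on 30 arrays and averaged between −0.12 and 0.08 in all 15 groups. Of the other receptors of B cell ligands, Tnfrsf13c and Tnfrsf17 were never called, and Tnfsf13b, the gene of the ligand BAFF, stood at 0.76 with LPS at 4 h (adjusted p = 9.25e-06).

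Tnfrsf12a, the receptor of the TNF-like ligand TWEAK, rose early and was back near 0 at 4 h. Its sets gave 1.23, 0.19 and 0.85 at 1 h, 1.25, 1.26 and 1.23 at 2 h, and 0.09, −0.02 and 0.09 at 4 h. The means were 0.76 ± 0.53 (adjusted p = 0.00571), 1.25 ± 0.02 (adjusted p = 4.05e-06) and 0.06 ± 0.07 (adjusted p = 0.977; SD, n = 3 each). Without set 1 the 1 h mean was 0.52 and was not called (adjusted p = 0.264). Tnfrsf4, which encodes the co-stimulatory receptor OX40, was called at 4 h at 0.49, with sets at 0.05, 0.91 and 0.50, and not without set 2 (0.28, adjusted p = 0.263).

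Tnfrsf22 and Tnfrsf23, neighbouring genes on chromosome 7 for decoy receptors of the death ligand TRAIL in the mouse, were the TNF receptor genes that fell with LPS. Tnfrsf22 fell to −0.52, −0.39 and −0.49 in the sets at 4 h, a mean of −0.47 ± 0.07 (SD, n = 3, adjusted p = 0.000619). At 1 h both were called, at −0.32 for Tnfrsf22 and −0.50 for Tnfrsf23, but 1 set carried these calls. Tnfrsf23 had −1.30 in set 1 against −0.12 and −0.08 in the others, and Tnfrsf22 had −0.76 against −0.11 and −0.09. Without set 1 the values were −0.10 for each, with adjusted p of 0.975 for Tnfrsf23 and 0.908 for Tnfrsf22. The receptor genes Fas and Cd40 belong to the same family under older symbols, so the naming rule left them out. Their values with LPS at 4 h, 4.09 for Fas and 4.74 for Cd40, were above that of Tnfrsf1b.

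**Figure D2:**
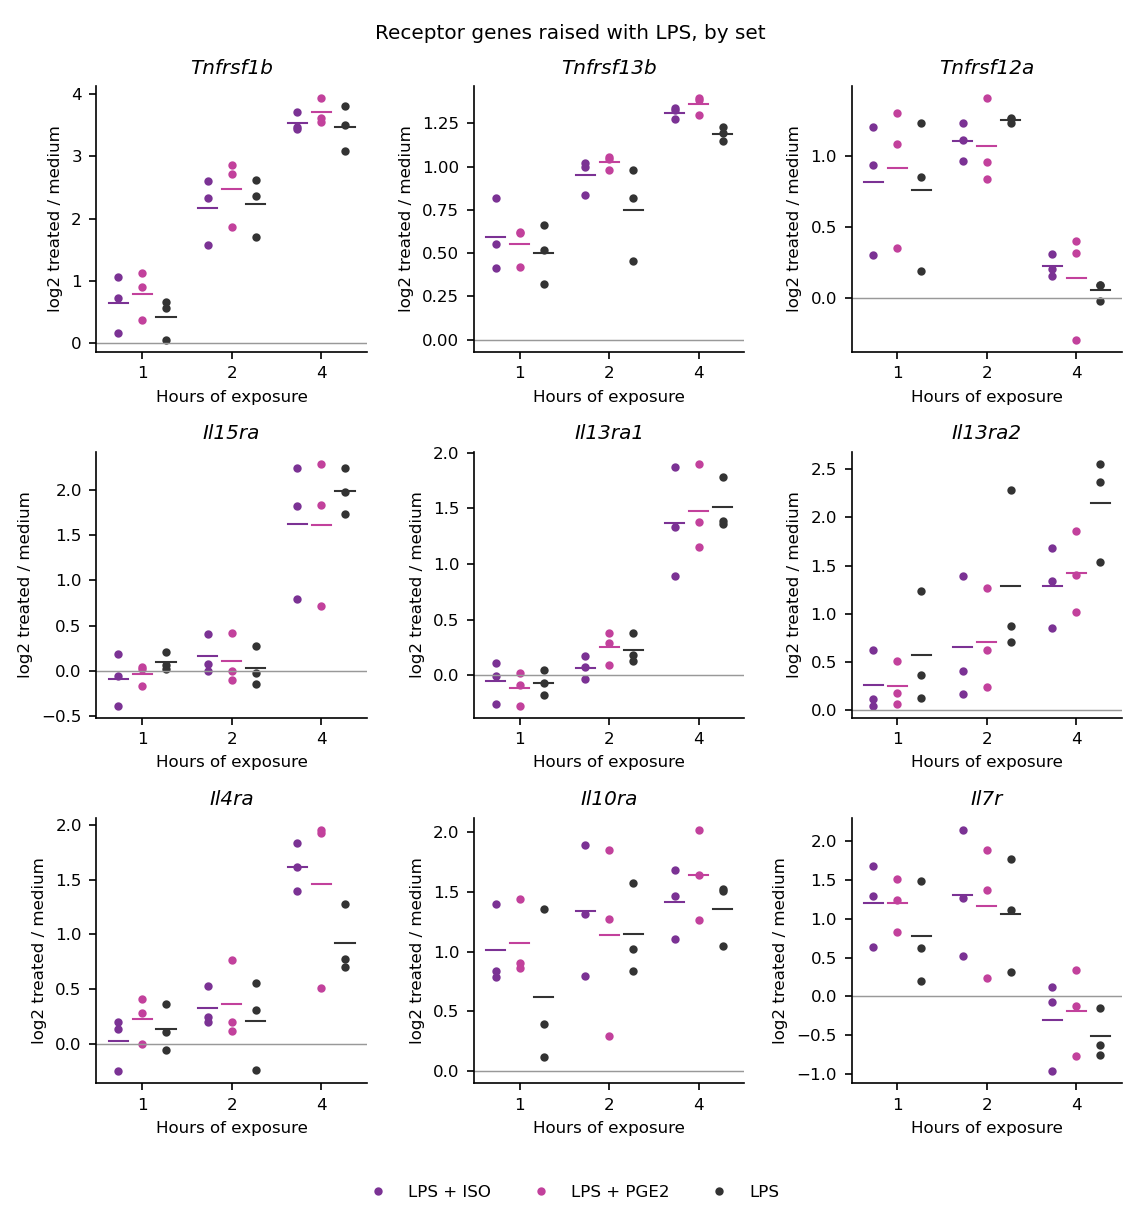
Log2 ratio of treated over medium in each set (points) and the mean of the group (bars) for 9 receptor genes raised with LPS, at 1, 2 and 4 h, with LPS plus ISO, LPS plus PGE2 and LPS alone side by side. Tnfrsf1b climbs at each time, Il15ra and Il13ra1 leave 0 only at 4 h, and the 4 h means of Tnfrsf12a and Il7r lie between −0.52 and 0.22.

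The promoters of 4 of these genes are shown. Tnfrsf1b and Tnfrsf13b had the highest ratios of the Tnfrsf genes described here with LPS at 4 h. Il1rap rose with LPS at that hour too, though Il13ra2, Il15ra, Il13ra1, Il10ra and Il4ra rose more and are not shown. Csf2rb2 was the gene called at every time with ISO and with PGE2. These 4 genes are no sample of the 58. Each line gives the 250 bases before the RefSeq gene start (build GRCm38.p6), 5′ to 3′ on the strand of the gene, with capitals marking the first listed motif found. The windows lie at chr4:145246871-145247120 on the minus strand for Tnfrsf1b, chr11:61126505-61126754 on the plus strand for Tnfrsf13b, chr16:26581455-26581704 on the plus strand for Il1rap and chr15:78305722-78305971 on the minus strand for Csf2rb2.
Tnfrsf1b: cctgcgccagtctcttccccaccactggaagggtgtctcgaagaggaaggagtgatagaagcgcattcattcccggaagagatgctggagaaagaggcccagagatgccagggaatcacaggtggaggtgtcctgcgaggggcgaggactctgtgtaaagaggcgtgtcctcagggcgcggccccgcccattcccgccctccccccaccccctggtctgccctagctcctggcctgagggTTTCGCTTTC
Tnfrsf13b: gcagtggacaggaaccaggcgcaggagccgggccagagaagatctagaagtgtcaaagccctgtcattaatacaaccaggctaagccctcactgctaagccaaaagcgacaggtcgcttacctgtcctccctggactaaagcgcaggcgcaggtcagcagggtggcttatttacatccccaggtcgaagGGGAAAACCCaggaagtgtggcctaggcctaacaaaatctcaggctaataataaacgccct
Il1rap: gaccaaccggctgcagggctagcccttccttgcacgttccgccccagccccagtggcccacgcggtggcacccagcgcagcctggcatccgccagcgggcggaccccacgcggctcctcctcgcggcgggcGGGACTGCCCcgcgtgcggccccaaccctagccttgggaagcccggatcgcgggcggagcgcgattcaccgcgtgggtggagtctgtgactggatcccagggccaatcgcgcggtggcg
Csf2rb2: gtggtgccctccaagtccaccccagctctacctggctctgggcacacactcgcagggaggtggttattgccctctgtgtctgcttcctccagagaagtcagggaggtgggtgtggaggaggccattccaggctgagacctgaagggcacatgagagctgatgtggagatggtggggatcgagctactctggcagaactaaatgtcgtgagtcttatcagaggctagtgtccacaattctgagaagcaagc
The capitals in Tnfrsf1b mark a match to the interferon-type motif (GAAA, any 2 bases, GAAA) on the reverse strand, at −10 to −1. In Tnfrsf13b and Il1rap they mark the kappaB motif (GGGA, any 4 bases, CC), at −61 to −52 and at −119 to −110. None of the 5 motifs searched on both strands was in the Csf2rb2 window, the cyclic AMP response element TGACGTCA and its shorter form TGACG included. Windows were at hand for 46 of the 58 genes. The kappaB motif was in 12 of the 46, against 17.6% of 32851 promoter windows of that length, and in 4 of the 13 with a window that rose with LPS at 4 h. TGACG was in 10 of 46, against 17.8% of all windows, and in 2 of the 7 raised by ISO or PGE2 alone. The full response element, which contains the shorter form, was in 1 of 46 (Csf2ra) against 1.55%, the interferon-type motif in 2 of 46 against 2.98%, and the AP-1 motif TGANTCA in 5 of 46 against 6.75%. These are matches of letters and not measured binding.

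The interleukin-1 receptor family has 7 genes here, of which 2 were called higher with LPS at 4 h, against 14.3% of all genes. Il1rap encodes the accessory chain that the receptors for interleukin 1 and interleukin 33 share. It rose to 0.61, 1.11 and 0.82 in the sets, a mean of 0.85 ± 0.25 (SD, n = 3, adjusted p = 3.11e-09), and at 1 and 2 h its means were −0.03 and 0.13. Il18rap, the accessory chain for interleukin 18, was called at 2 h at 0.44 (not without set 3) and at 4 h at 0.64 (adjusted p = 4.69e-06). Its probes read 0.38 and 0.91 at 4 h. Il1rapl2 was called at 2 h only, at 0.53, and not without set 2 or without set 3. The ligand-binding chain Il1r1 and the decoy receptor Il1r2 were not called with LPS alone, while Il1b itself was at 5.22 at 4 h.

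Of the 9 genes for receptors that use the common gamma chain or partner such receptors, 4 rose at 4 h of LPS and 0 fell. Of all genes, 14.3% were called higher there and 16.4% lower. Il13ra2, a decoy chain for interleukin 13, had sets at 1.24, 0.12 and 0.36 at 1 h, 2.28, 0.71 and 0.87 at 2 h, and 2.56, 2.37 and 1.53 at 4 h. Set 1 was the highest of the 3 sets at each time. The means were 1.29 ± 0.86 at 2 h and 2.15 ± 0.55 at 4 h (SD, n = 3 each), with adjusted p of 0.000322 and 2.22e-08. Without set 1 the 2 h value was 0.79 and was not called (adjusted p = 0.0679). Il13ra1, the signalling chain for the same ligand, was called only at 4 h, at 1.39, 1.36 and 1.78, a mean of 1.51 ± 0.23 (SD, n = 3, adjusted p = 1.12e-11).

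Il15ra, which binds interleukin 15 and presents it to other cells, was also called at 4 h alone. Its sets gave 1.73, 1.98 and 2.24, a mean of 1.98 ± 0.26 (SD, n = 3, adjusted p = 2.52e-10) and a 3.95-fold increase. The ligand gene Il15 rose beside it, to 3.51. Il4ra, the chain that interleukins 4 and 13 share, stood at 0.78, 0.71 and 1.28 at 4 h, a mean of 0.92 ± 0.31 (SD, n = 3, adjusted p = 7.84e-05).

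Il7r, the interleukin 7 receptor, followed a course like that of Tnfrsf12a. Its sets had 0.20, 0.63 and 1.49 at 1 h, 0.31, 1.12 and 1.77 at 2 h, and −0.76, −0.64 and −0.16 at 4 h. Set 3 was the highest at each time, and every 4 h set was below 0. Only the 2 h mean of 1.07 ± 0.73 (SD, n = 3) was called (adjusted p = 0.0111), and it was not called without set 3 (0.72, adjusted p = 0.239) or without set 2 (1.04, adjusted p = 0.0653). Il2ra, Il2rb, Il9r and Il21r were not called in any group.

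Of the 6 interferon and interleukin-10 receptor genes, 2 rose and 2 fell with LPS at 4 h, against 14.3% and 16.4% of all genes. Il10ra, the ligand-binding chain for the anti-inflammatory interleukin 10, had 0.84, 1.02 and 1.57 at 2 h and 1.05, 1.52 and 1.51 at 4 h of LPS. The mean of 1.36 ± 0.27 at 4 h (SD, n = 3) had an adjusted p of 1.24e-05. Il10rb, its partner chain, was not called with LPS alone, and the ligand gene Il10 was at 3.20 at 4 h. For interferon gamma, the ligand-binding chain Ifngr1 fell to −0.86, −0.80 and −0.71 at 4 h, a mean of −0.79 ± 0.08 (SD, n = 3, adjusted p = 2.88e-10). Its signalling partner Ifngr2 was called higher, at 0.20 with sets at 0.05, 0.26 and 0.29, and not without set 2 or without set 3.

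For interferons alpha and beta, Ifnar2, the high-affinity chain, was called lower at every time, but the 1 h call rested on 1 of its 2 probes. Its sets gave −0.36, −0.24 and −0.39 at 1 h, −0.77, −0.55 and −0.67 at 2 h, and −0.28, −0.45 and −0.32 at 4 h. All 2 h sets lay below all sets of 1 h and 4 h. The 2 h mean was −0.66 ± 0.11 (SD, n = 3, adjusted p = 2.09e-08), and there its 2 probes read −1.07 and −0.26. At 1 h they read −0.58, from the probe with values on 81 arrays, and −0.08, from the probe with values on all 88, and with that second probe alone the gene was not called (adjusted p = 0.441). Ifnar1, the other chain, was called higher at 2 h at 0.22, and not without set 2 (0.15, adjusted p = 0.130). The ligand gene Ifnb1 rose over the same times, to 2.67, 3.57 and 4.72.

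Of the 7 genes of the interleukin-6 and interleukin-12 receptor family, 0 rose and 3 fell with LPS at 4 h. Of all genes, 14.3% were called higher there and 16.4% lower. Il6st encodes gp130, the signal chain shared by interleukin 6 and its relatives, and fell to −0.88, −1.23 and −0.75 at 4 h, a mean of −0.96 ± 0.25 (SD, n = 3, adjusted p = 0.000341). Il6ra, which binds interleukin 6, fell to −0.60, −0.58 and −0.29, a mean of −0.49 ± 0.17 (SD, n = 3, adjusted p = 0.00026). Its 3 probes disagreed, at −0.73, −0.89 and 0.16. Il12rb1, the chain that interleukins 12 and 23 share, was called at −0.32 at 4 h, and not without set 2 or without set 3. Il12rb2 was called at −0.17 at 2 h from values on 3 of 6 arrays, and not without set 1 (−0.16, adjusted p = 0.178) or without set 2 (−0.09, adjusted p = 0.533). Lifr, Il27ra and Il11ra2 were never called. The ligand gene Il6 stood at 4.64 at 4 h.

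**Figure D3:**
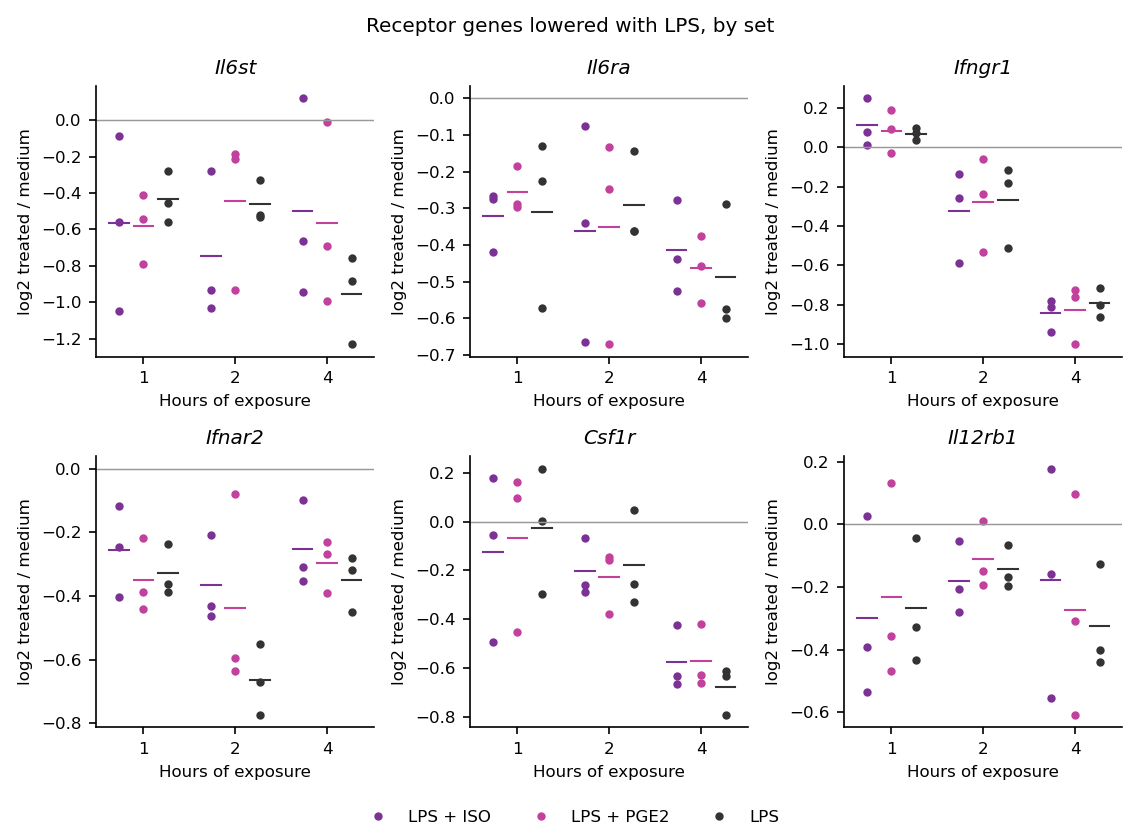
Log2 ratio of treated over medium in each set (points) and group means (bars) for 6 receptor genes lowered with LPS, at 1, 2 and 4 h, with LPS plus ISO, LPS plus PGE2 and LPS alone side by side. Ifngr1 and Csf1r are lowest at 4 h, whereas Ifnar2 is lowest at 2 h with LPS alone.

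Among receptors of colony-stimulating factors, those for GM-CSF rose and that for M-CSF fell with LPS at 4 h. Csf1r, the M-CSF receptor and a lineage marker of macrophages, fell to −0.61, −0.79 and −0.63, a mean of −0.68 ± 0.10 (SD, n = 3, adjusted p = 1.09e-05). Csf2ra, the GM-CSF binding chain, rose to 0.44 ± 0.16 (adjusted p = 0.000195) and Csf2rb, the common beta chain, to 0.68 ± 0.34 (adjusted p = 4.13e-05; SD, n = 3 each). The 1 probe of Csf2rb depended on the dye. It averaged 1.15 on arrays with treated RNA in the dye Cy5 and 0.20 with it in Cy3, and 1 of 6 arrays was below 0. Csf2rb2, a mouse chain specific for interleukin 3, was barely past the threshold at 0.30 (adjusted p = 0.0254 in limma), and not without set 1 or without set 3. Csf2rb and Csf2rb2 are close relatives side by side on chromosome 15, and whether their probes read each other's transcript was not tested. Il3ra was called at 1 h only, at 0.14, and not without set 1 (0.09, adjusted p = 0.609) or without set 3 (0.16, adjusted p = 0.0873). That mean joins a probe at 0.28 and a probe that had a value on 1 array and stood at 0 here. Csf3r and Il5ra were never called. The ligand genes Csf2 and Csf1 were at 3.70 and 1.45 at 4 h. Of 4 interleukin-17 receptor genes, Il17ra was called higher at 4 h, at 0.34, and not without set 2 or without set 3.

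Across LPS alone, 4 of the 6 calls at 1 h, 8 of 13 at 2 h and 5 of 23 at 4 h ended when 1 set was left out. With the 3 sets of 1 group fitted alone, in place of the pooled spread of 44 sets, 0, 1 and 9 receptor genes were called at 1, 2 and 4 h. The share of all genes called in single-group fits was not counted, here or below. The 9 at 4 h were Tnfrsf1b, Tnfrsf13b, Tnfrsf22, Il10ra, Il13ra1, Il15ra, Csf1r, Ifngr1 and Tnfrsf11a, of which the last was not called in the fit of all sets (−0.17, adjusted p = 0.0864).

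ISO and PGE2 alone moved few receptor genes, almost all upward. With ISO, 2 were higher at 1 h, 5 at 2 h and 9 at 4 h, where 0.713%, 0.884% and 1.87% of all genes were higher. Lower were 0, 0 and 1 at these times, where 0.190%, 0.827% and 1.48% of all genes were. With PGE2, 1 was higher at 1 h, 2 at 2 h and 5 at 4 h, against 0.200%, 0.238% and 0.542% of all genes. None was lower with PGE2, against 0.124%, 0.219% and 0.599% of all genes. All 5 genes called with PGE2 were also called with ISO, and the same overlap over all genes was not counted. The labels do not say whether the medium RNA of 1 set served several treatments. With the set number within time as a block, 9, 10 and 18 receptor genes were called at 1, 2 and 4 h of ISO, where 5.13%, 5.36% and 11.2% of all genes were. At these times of PGE2 the block called 7, 6 and 9, against 4.14%, 1.71% and 5.45% of all genes.

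Csf2rb2 was the receptor gene called at every time with each of these ligands. With ISO its sets gave 0.63, 0.93 and 0.81 at 1 h, 1.43, 0.94 and 1.39 at 2 h, and 0.54, 1.13 and 0.73 at 4 h. With PGE2 they gave 0.64 and 0.67 at 1 h, 0.95, 0.93 and 0.98 at 2 h, and 0.67, 0.86 and 0.48 at 4 h. Every one of these 17 sets lay above every set of LPS alone at the same time, which ran from −0.34 to 0.10 at 1 h, −0.05 to 0.37 at 2 h and 0.11 to 0.46 at 4 h. The means were highest at 2 h, 1.25 ± 0.27 with ISO (adjusted p = 1.44e-09) and 0.95 ± 0.03 with PGE2 (adjusted p = 1.34e-06; SD, n = 3 each). Its 2 probes read alike, at 0.73 and 0.87 with ISO at 4 h. The PGE2 value at 1 h, from 2 sets, was not called without either set (adjusted p of 0.169 and 0.176).

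Tnfrsf13b, which LPS also raised, had 0.70, 0.44 and 0.62 at 2 h and 0.69, 0.92 and 1.02 at 4 h of ISO. With PGE2 it had 0.37, 0.12 and 0.43 at 2 h and 0.61, 0.83 and 0.88 at 4 h. The called means were 0.59 ± 0.14 and 0.88 ± 0.17 with ISO (adjusted p = 2.23e-05 and 9.86e-09) and 0.77 ± 0.15 with PGE2 at 4 h (adjusted p = 1.99e-07; SD, n = 3 each). Its better-read probe stood at 1.71 with ISO and 1.53 with PGE2 at 4 h. All sets of each ligand were above 0.

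Il17ra, the shared chain of interleukin-17 receptors, rose at 4 h to 0.38, 0.70 and 0.91 with ISO and to 0.49, 0.77 and 0.99 with PGE2. The means of 0.66 ± 0.27 and 0.75 ± 0.25 (SD, n = 3 each) had adjusted p of 0.00101 and 0.00037, and without set 3 the PGE2 value was 0.63 with an adjusted p of 0.0504. The decoy genes Tnfrsf22 and Tnfrsf23 were at 0.56 and 0.62 with ISO at 4 h, and at 0.45 and 0.52 with PGE2, of which that of Tnfrsf23 was not called (adjusted p = 0.112). Tnfrsf22 was thus called higher with ISO and PGE2 and called lower with LPS at the same hour; the difference between those treatments was not tested. Its ISO call was lost without set 3 (adjusted p = 0.0602), its PGE2 call without any 1 of the 3 sets, and the ISO call of Tnfrsf23 without set 2 or without set 3.

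Ifnar1 changed little but in many groups, at 0.22, 0.36 and 0.29 with ISO at 1, 2 and 4 h and at 0.24 and 0.25 with PGE2 at 2 and 4 h. The calls at 2 h and 4 h of ISO held when any 1 set was left out, and the other 3 did not. Tnfrsf1b was called with ISO at 2 h at 0.79, with sets at 0.74, 0.64 and 0.99, and not without any 1 of the 3 sets (adjusted p of 0.0739 to 0.168). At that hour LPS alone gave 2.23. Il10rb rose to 0.49 at 2 h of ISO, and Csf2rb (0.50), Il1rap (0.44) and Ifngr2 (0.27) rose at 4 h of ISO. Each of these 4 calls ended when at least 1 set was left out: set 1 for Il10rb and Il1rap, set 2 or set 3 for Csf2rb and Ifngr2. Csf2rb at 4 h of ISO averaged 0.91 with treated RNA in the dye Cy5 and 0.10 with it in Cy3. The 2 probes of Il1rap there read 0.64 and 0.25, the lower one with values on all 88 arrays. With 1 probe per gene that Il1rap call was lost. The one called fall was Tnfrsf12a with ISO at 4 h, with sets at −1.17, −0.83 and −0.37 and a mean of −0.79 ± 0.40 (SD, n = 3, adjusted p = 0.00951), not called without set 1 (−0.60) or without set 2 (−0.77). Il13ra2 had −0.83 with ISO and −0.90 with PGE2 at 4 h, with all 6 sets below 0, and neither was called (adjusted p = 0.0709 and 0.0927).

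**Figure D4:**
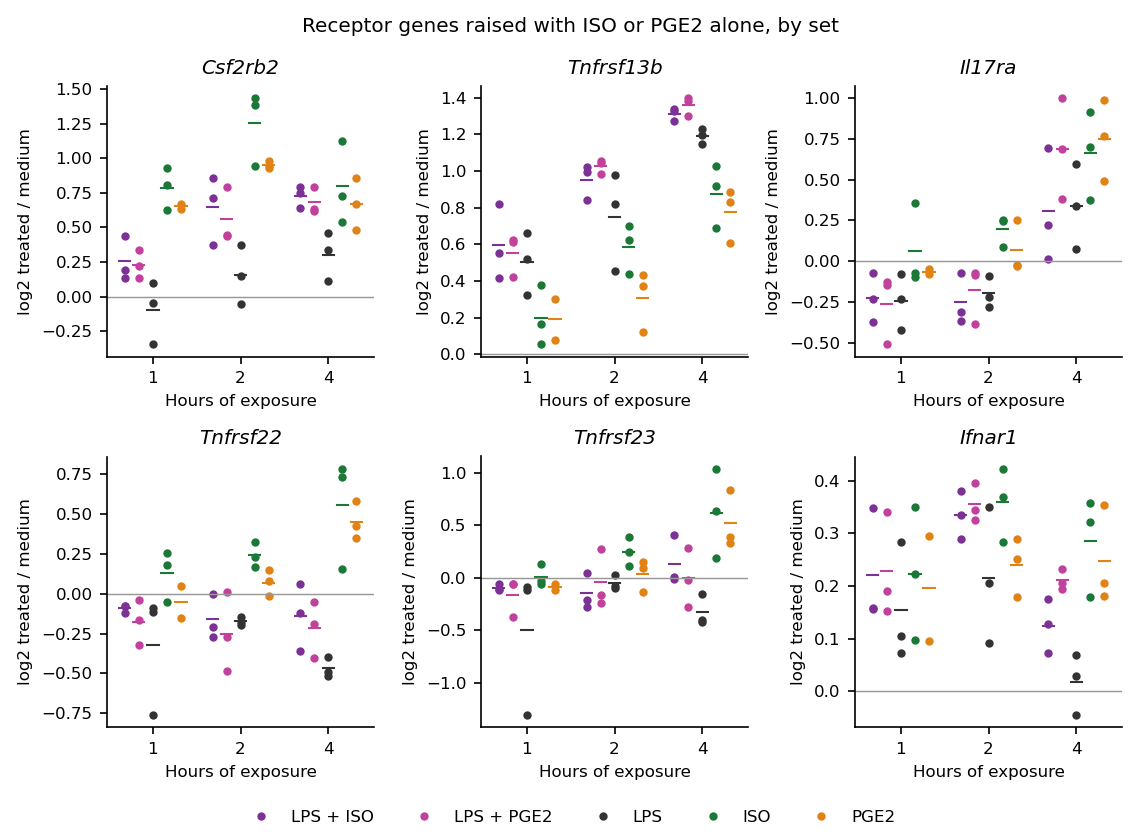
Log2 ratio of treated over medium in each set (points) and group means (bars) for 6 receptor genes raised with ISO or PGE2 alone, at 1, 2 and 4 h, with the 5 treatments side by side. Csf2rb2 is above 0 in every set of ISO and PGE2 at each time, while Tnfrsf22 and Tnfrsf23 at 4 h lie above 0 with ISO and PGE2 and below 0 with LPS alone.

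Between ISO and PGE2 no receptor gene was called at 1, 2 or 4 h, and 0% of all genes were. An unadjusted p under 0.05 in limma was reached by 1, 3 and 1 of the 58 genes, and the share of all genes under that cut was not counted. The largest of these receptor gene differences, ISO minus PGE2, was 0.39 for Il1r2 at 2 h (95% interval 0.04 to 0.74). For Csf2rb2 at 2 h the difference was 0.30 (95% interval 0.00 to 0.61). With each group's own sets in the fit in place of all 44, no ISO or PGE2 call of a receptor gene was kept.

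Against medium, LPS with ISO or with PGE2 again moved more receptor genes, and more of all genes, at 4 h than at 1 h. With LPS plus ISO, 7, 11 and 15 genes were higher at 1, 2 and 4 h, where 4.15%, 7.70% and 14.4% of all genes were. Lower were 1, 4 and 4, against 3.27%, 6.15% and 15.6% of all genes. With LPS plus PGE2, 7, 11 and 18 were higher, against 4.70%, 7.49% and 15.2% of all genes. Lower were 1, 3 and 6, against 2.99%, 5.77% and 16.5%. At 1 h Il7r, Il10ra, Tnfrsf1b, Il1rapl2 and Ifnar1 were called in both combinations and not with LPS alone, but none of their differences from LPS alone was called. With the block, 15 receptor genes were called at 1 h of LPS plus ISO, where 17.3% of all genes were, and 22 at 2 h of LPS plus PGE2, where 21.5% were. Leaving out 1 set ended 7 of the 8 calls at 1 h with LPS plus ISO and 7 of the 8 with LPS plus PGE2.

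Set against LPS alone, a combination changed no receptor gene past the threshold in any of the 6 comparisons, where 0.0190%, 0% and 0.0951% of all genes were called for ISO at 1, 2 and 4 h and 0%, 0% and 0.0285% for PGE2. At an unadjusted p under 0.05 in limma there were 2, 2 and 5 of the 58 for ISO and 3, 5 and 4 for PGE2. The share of all genes under that unadjusted cut was not counted, so these numbers show nothing particular to receptor genes. With the set number within each time as a block in limma, the count of called receptor genes was still 0 in each, and the lowest adjusted p was 0.0825. That fit called 0.0570%, 0.152% and 0.504% of all genes for ISO and 0.0285%, 0.0285% and 0.475% for PGE2. The plot of combination minus LPS at 4 h gives the differences and their intervals for 26 genes. By the labels, LPS alone also held lipid binding protein and the combinations did not. In these differences, and in the departures from additivity below, its part cannot be told apart from that of ISO or PGE2.

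Tnfrsf1b at 4 h stood at 3.45, 3.70 and 3.46 with LPS plus ISO and at 3.62, 3.93 and 3.56 with LPS plus PGE2, against 3.08, 3.81 and 3.50 with LPS alone. The differences were 0.07 (95% interval −0.48 to 0.62) and 0.24 (−0.31 to 0.79). Il13ra1 had 1.33, 0.89 and 1.87 with LPS plus ISO and 1.38, 1.15 and 1.90 with LPS plus PGE2, against 1.39, 1.36 and 1.78 with LPS alone. Il10ra had 1.11, 1.68 and 1.46 with LPS plus ISO and 1.26, 2.02 and 1.64 with LPS plus PGE2, against 1.05, 1.52 and 1.51 with LPS alone. Set by set, LPS plus PGE2 was above LPS alone of the same number in 3 of 3 sets for Tnfrsf1b, by 0.06 to 0.54, and for Il10ra, by 0.13 to 0.50, and in 1 of 3 for Il13ra1. LPS plus ISO was above it in 1 of 3 sets for Tnfrsf1b and Il13ra1 and in 2 of 3 for Il10ra. None of these differences was called, with or without the block.

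Il4ra was the member with the largest upward difference at 4 h. Its sets were 1.83, 1.39 and 1.62 with LPS plus ISO, all above the 0.78, 0.71 and 1.28 with LPS alone, a difference of 0.69 (95% interval 0.19 to 1.20, unadjusted p = 0.00896, adjusted p = 1 in limma). With LPS plus PGE2 they were 0.51, 1.96 and 1.93, where 1 of the 2 arrays of set 1 stood at exactly 0 and the other at 1.01. That difference was 0.54 (95% interval 0.04 to 1.05, adjusted p = 1), and without set 1 of LPS plus PGE2 it was 1.02 and was called (adjusted p = 0.0298). Against medium, Il4ra was 3.06-fold higher with LPS plus ISO, 2.76-fold with LPS plus PGE2 and 1.89-fold with LPS alone.

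Il13ra2 differed the other way. At 4 h it had 1.68, 1.33 and 0.85 with LPS plus ISO and 1.86, 1.41 and 1.01 with LPS plus PGE2, against 2.56, 2.37 and 1.53 with LPS alone. In each of the 3 sets both combinations were below LPS alone of the same number, by 0.68 to 1.04 with ISO and by 0.52 to 0.97 with PGE2. The mean differences of −0.87 (95% interval −1.60 to −0.13) and −0.73 (−1.46 to 0.01) were not called (adjusted p = 1 in each; 0.311 and 0.448 with the set number within time as a block). At 2 h the combinations had 0.65 and 0.71, which were not called against medium, and LPS alone had 1.29.

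Csf2rb2 in both combinations was above LPS alone in every same-numbered set at 2 and 4 h. At 2 h it had 0.72, 0.37 and 0.86 with LPS plus ISO and 0.79, 0.44 and 0.44 with LPS plus PGE2, against 0.37, −0.05 and 0.15 with LPS alone. The differences were 0.49 (95% interval 0.19 to 0.79) and 0.40 (0.10 to 0.70), and neither was called (adjusted p = 0.943 and 1). At 4 h it had 0.79, 0.64 and 0.75 with LPS plus ISO and 0.79, 0.62 and 0.64 with LPS plus PGE2, against 0.34, 0.11 and 0.46 with LPS alone. At 1 h, where ISO alone gave 0.79, the combination with ISO gave 0.26 and was not called against medium (adjusted p = 0.154).

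Il15ra had 0.79, 1.82 and 2.24 with LPS plus ISO and 0.71, 1.83 and 2.29 with LPS plus PGE2, against 1.73, 1.98 and 2.24 with LPS alone at 4 h. Set 1 of each combination held 1 array at exactly 0; the other array of that set read 1.57 with LPS plus ISO and 1.43 with LPS plus PGE2. Il1rap had 0.80, 0.96 and 1.22 with LPS plus ISO and 0.87, 1.12 and 1.22 with LPS plus PGE2, against 0.61, 1.11 and 0.82 with LPS alone. Il17ra had 0.38, 0.69 and 1.00 with LPS plus PGE2 against 0.07, 0.34 and 0.60 with LPS alone, a difference of 0.31 to 0.40 in the 3 sets (mean 0.35, adjusted p = 1, and 0.0825 with the block). For the genes that rose early, Tnfrsf12a at 2 h had 0.96, 1.23 and 1.11 with LPS plus ISO and 0.95, 1.40 and 0.84 with LPS plus PGE2, against 1.25, 1.26 and 1.23 with LPS alone, and Il7r had 0.51, 1.27 and 2.15 and 0.24, 1.37 and 1.89, against 0.31, 1.12 and 1.77.

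Among the genes lowered by LPS, Ifngr1 at 4 h had −0.84 with LPS plus ISO and −0.83 with LPS plus PGE2 against −0.79 with LPS alone, and Csf1r had −0.57 and −0.57 against −0.68. Il6st stood at −0.56 with LPS plus PGE2 at 4 h and was called, but not without set 1 or without set 2, against −0.96 with LPS alone. Ifnar2 at 2 h had −0.21, −0.46 and −0.43 with LPS plus ISO and −0.08, −0.60 and −0.64 with LPS plus PGE2, against −0.77, −0.55 and −0.67 with LPS alone. The differences of 0.30 and 0.23 had unadjusted p of 0.0069 and 0.0345 in limma and were not called. They came mostly from the Ifnar2 probe with values on 81 arrays. It read −0.53 with LPS plus ISO and −0.65 with LPS plus PGE2, against −1.07 with LPS alone. The probe with values on all 88 arrays read −0.20 and −0.23 against −0.26.

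**Figure D5:**
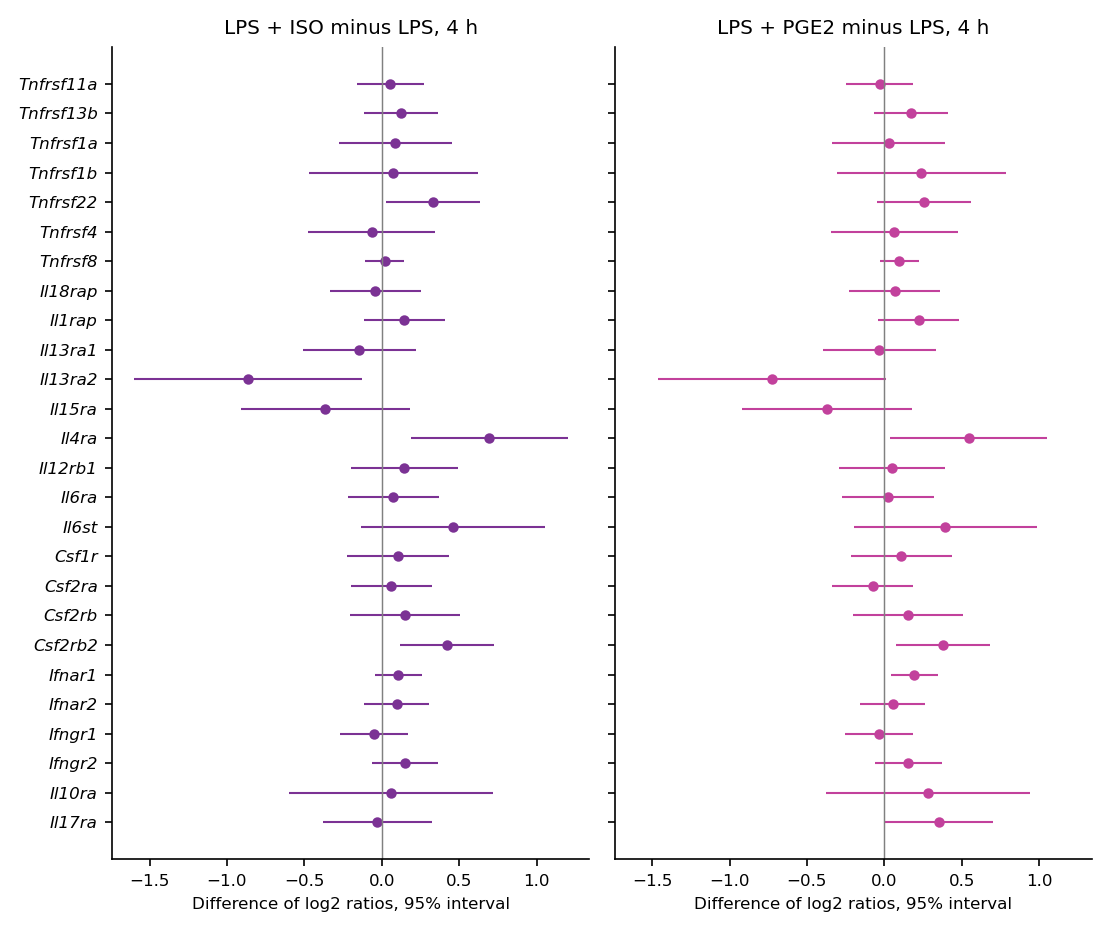
Difference of the log2 ratios at 4 h, LPS plus ISO minus LPS (left) and LPS plus PGE2 minus LPS (right), with its unadjusted 95% interval, for the 26 receptor genes called with LPS or a combination at 4 h. The interval leaves out 0 for 4 genes in each panel, and after adjustment over all genes none is called.

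Departure from additivity, the combination minus LPS minus the single ligand, was called for 1 receptor gene with ISO and 0 with PGE2, where 0.0856% and 0.00951% of all genes were. That gene was Tnfrsf13b (F test over the 3 times, adjusted p = 0.0345). At 4 h it had 1.27, 1.33 and 1.34 with LPS plus ISO, against 1.20, 1.23 and 1.15 with LPS alone and 0.69, 0.92 and 1.02 with ISO alone. The departure was −0.75 ± 0.14 (SE, adjusted p = 0.0244), so the combination fell short of the sum of the single log2 ratios. With PGE2 the departure at 4 h was −0.61 ± 0.14 (SE, adjusted p = 0.258), from sets at 1.38, 1.40 and 1.30 with LPS plus PGE2. With the set number within time as a block, 3 genes passed the F test with ISO (Tnfrsf13b, Csf2rb2 and Il17ra) and 1 with PGE2 (Tnfrsf13b), where 0.941% and 0.143% of all genes did, and with exact 0s taken as missing none passed with ISO. Leaving out 1 set ended the 4 h call in 7 of 9 fits, with adjusted p of 0.0569 to 0.110.

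Responses differed between 1, 2 and 4 h for 16 receptor genes with LPS alone, 15 with LPS plus ISO and 16 with LPS plus PGE2, by an F test in limma that called 18.5%, 17.6% and 17.8% of all genes. With ISO alone 2 passed, Tnfrsf13b and Tnfrsf12a, against 0.589% of all genes, and with PGE2 alone 0, against 0.00951%. With the block these counts were 9 for ISO, 6 for PGE2 and 25 for LPS plus PGE2, where 5.69%, 4.34% and 30.2% of all genes passed.

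Some ligands and signalling partners of these receptors responded to LPS as well. Of 33 measured ligand genes, 10, 17 and 20 were higher at 1, 2 and 4 h, where 4.64%, 8.88% and 14.3% of all genes were. At the last time 1 was lower, against 16.4% of all genes. Of 31 measured signalling genes, 4, 14 and 15 were higher, against the same shares of all genes. Lower were 1, 0 and 4, against 4.84%, 7.01% and 16.4% of all genes. The adaptor gene Traf1 stood at 2.59, the kinase gene Jak2 at 1.95, the inhibitor gene Socs1 at 2.34 and Stat3 at 1.45 with LPS at 4 h, all called. With ISO alone, Il1b was called at 1 h at 1.92 and at 2 h at 1.41, at times when Il1r1 and Il1rap were not. No ligand or signalling gene of these lists was called with PGE2 alone at 4 h, where 0.542% of all genes were higher and 0.599% lower.

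The 24 genes never called were Csf1r-ps, Csf3r, Il11ra2, Il17rb, Il17rc, Il17rd, Il18r1, Il1r2, Il1rl2, Il21r, Il27ra, Il2ra, Il2rb, Il5ra, Il9r, Lifr, Tnfrsf10b, Tnfrsf11b, Tnfrsf13c, Tnfrsf17, Tnfrsf18, Tnfrsf19, Tnfrsf21 and Tnfrsf25. Their group means lay between −0.43 and 0.34. Of these, 13 had values on 44 or more arrays, counted over all probes of the gene, and 11 did not. Gene means of the 13 can still hold exact 0s from a probe with few values. For Tnfrsf17 at 4 h, the probe with values on 85 arrays read −0.37 with ISO and −0.36 with PGE2. Its other probe, with values on 30 arrays, read 0.02 and 0.002. Many of the 24 are best known from lymphocytes or other cells, and no level is known here. Of the members with values on fewer than 44 arrays, 1 was called, Il12rb2.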

How the data were processed

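The deposited table held, per the labels, log2 ratios from 2-colour custom arrays with 16281 probes, 1 column for each of 88 arrays. For the authors' background correction and normalization of these log2 values, the labels read here give no method. The values stop at a 100-fold ratio, which 17 values reached, none of them of a receptor gene. A probe was named where the platform annotation gave 1 gene (13738 probes, 13694 of them with a current symbol found by Entrez id). Ratios were turned to treated over medium, the 2 arrays of a set were averaged, and probes were averaged per gene. limma 3.58.1 in R 4.3.3 fitted 15 group means to 44 sets (29 residual degrees of freedom). All tests were two-sided, with Benjamini-Hochberg adjustment over 10518 genes and a threshold of 0.05. The number of arrays limits the precision, and depth has no meaning here.

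Values per set were given for receptor genes called with at least a 2-fold change in any group. Other called genes were named with their ratio, ligand and signalling genes up to 6 per list, and genes never called in 1 list. Further per-set values were added where a statement rested on them. The receptor genes and the lists were chosen with earlier results of these data known. Alternatives were the set number as a replicate block, exact 0s as missing, other centring and scaling, 1 probe per gene, a filter on values, single arrays, single groups and each set left out. Same-numbered sets of a combination and LPS alone correlated at 0.20 to 0.60 across genes in their deviations from the group means. Their sets of unlike number correlated at −0.44 to 0.01, so there the numbers were taken to pair sets within a time. Same-numbered sets of ISO and PGE2 correlated at 0.19 to 0.66. Sets of unlike number reached 0.37 at 1 h and 0.19 at 4 h, so the pairing is less clear for these ligands.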

Additional observations from a re-analysis of the deposited data

Results flagged for a closer look

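The response to LPS alone differed between 1, 2 and 4 h for 16 receptor genes by limma's F test over the 3 times. The adjusted p was 7.33e-10 for Tnfrsf1b, 4.42e-08 for Il13ra1, 5.38e-07 for Il15ra, 8.65e-07 for Ifngr1, 5.42e-06 for Il1rap, 0.00012 for Tnfrsf13b, 0.000541 for Il18rap and 0.000723 for Csf2rb. It was 0.00278 for Tnfrsf12a, 0.00319 for Tnfrsf1a, 0.00508 for Il13ra2, 0.00689 for Csf1r, 0.0126 for Il7r, 0.0201 for Il17ra, 0.0251 for Ifnar2 and 0.0356 for Il4ra. Most were furthest from 0 at 4 h, while Tnfrsf12a, Il7r and Ifnar2 were furthest at 2 h.

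With ISO alone, times differed for Tnfrsf13b (limma F test, adjusted p = 0.00969) and Tnfrsf12a (0.0353). With LPS plus ISO 15 receptor genes differed between times, and with LPS plus PGE2 16 did. Tnfrsf13b also departed from additivity of LPS and ISO, with an adjusted p of 0.0345.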

How the results depend on the processing

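Of 155 calls of a receptor gene against medium, 21 were kept under every alternative and 89 in every fit with 1 set left out. One reversed: Tnfrsf11a with LPS plus PGE2 at 4 h, to 0.010 with 1 probe per gene. The share of all genes called was counted for no alternative but the set number within time as a block. Why counts moved was not tested, and this includes the single-group fits with their smaller number of sets.

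With the groups of 1 comparison fitted alone, the counts were 0, 1 and 9 at 1, 2 and 4 h of LPS, 0 at each time of ISO and of PGE2, 0, 0 and 6 with LPS plus ISO, and 0, 0 and 9 with LPS plus PGE2. The additivity test with ISO then called 0, and the tests between times 7 (LPS plus ISO), 9 (LPS plus PGE2), 7 (LPS) and 0 (ISO).

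With the set number within time as a replicate block, the counts were 16 and 22 at 1 and 2 h of LPS, 9, 10 and 18 with ISO, 7, 6 and 9 with PGE2, 15 at 1 h of LPS plus ISO and 22 at 2 h of LPS plus PGE2. This block also gave 3 and 1 for additivity with ISO and PGE2, and 9, 6 and 25 between times for ISO, PGE2 and LPS plus PGE2. Set number over all times as a replicate block gave 10 at 1 h of LPS, 8 at 2 h of ISO and 1 between times of PGE2. Neither block ended a call against medium or called a difference from LPS alone. Each leaves the mean of a group with 3 sets unchanged and takes shared differences between sets out of the spread. That no call against medium ended therefore says little about how stable the calls are. As a random block, set within time gave 2 for additivity with ISO and 2 between times of PGE2.

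Single arrays gave 12 at 1 h of LPS, 11 at 2 h of ISO, and 3, 6 and 8 with PGE2. They gave 4 and 1 for additivity with ISO and PGE2, and 6 and 5 between times of ISO and PGE2. Scaling arrays to 1 spread gave 14 at 2 h of ISO, 5 and 11 at 2 and 4 h of PGE2, and 10 and 5 between times of LPS and PGE2. One probe per gene gave 1 at 1 h of ISO and 4 at 2 h of PGE2. With 0s as missing, additivity with ISO gave 0 and times of ISO 1.

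With 1 set left out, counts ran from 2 to 8 and 8 to 10 at 1 and 2 h of LPS, 1 to 2, 3 to 4 and 6 to 9 with ISO, and 0, 1, and 2 to 4 with PGE2. They ran from 2 to 9 at 1 h of LPS plus ISO, and from 1 to 10 and 9 to 13 at 1 and 2 h of LPS plus PGE2. Against LPS alone, LPS plus PGE2 at 4 h gave 0 to 1, additivity with ISO 0 to 2 and times of ISO 1 to 2.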
